A study of Mus musculus with 16 samples.

Results

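The 32 genes described here encode the granule proteins, receptors and regulators of neutrophils and of their precursors in the bone marrow. They were fixed by name: S100a8, S100a9, Ngp, Camp, Ltf, Lcn2, Elane, Mpo, Prtn3, Ctsg, Cebpe, Retnlg, Fcnb, Cd177, Lyz2, Csf3r, Ly6g, Ms4a3, Mcpt8, Padi4, Pglyrp1, Hp, Anxa1, Gfi1, Trem1, Trem3, Ncf1, Ncf4, Cybb, Fpr1, Fpr2 and 1100001G20Rik. All 32 were found among the 38926 gene names of the mpEC and bmEC table, the 21603 genes of the Yap1/Taz table and the 38922 gene names of the Lats2 table. The libraries were made from cells sorted as endothelial cells (ECs), and which cells in them carried these transcripts was not measured.

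Neutrophils form in the bone marrow in ordered steps, and each step makes its own set of granule proteins. Promyelocytes make the primary granules with myeloperoxidase (Mpo) and the serine proteases elastase (Elane), proteinase 3 (Prtn3) and cathepsin G (Ctsg). Myelocytes and metamyelocytes stop making these and fill the secondary granules with lactoferrin (Ltf), the antimicrobial peptide precursor cathelicidin (Camp), neutrophilic granule protein (Ngp) and lipocalin 2 (Lcn2). Band cells and mature neutrophils carry the transcripts of the calcium-binding proteins S100a8 and S100a9, the resistin-like protein Retnlg and the surface protein Ly6g. The ratio of Mpo and Elane to Camp and Retnlg is therefore a measure of how early or late the neutrophil transcripts in a library are.

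The series compared bone ECs of C57BL/6 mice in 16 RNA-seq libraries. The first comparison was between metaphyseal ECs (mpECs, 3 libraries) and ECs of the diaphyseal marrow cavity (bmECs, 3 libraries), both wildtype by the labels. According to the methods they were sorted by fluorescence-activated cell sorting (FACS) from 3-week-old Cdh5-mT/nG reporter mice, in which the endothelial Cdh5 promoter drives the 2 fluorescent proteins. The second was between bone ECs at postnatal day 21 from mice with floxed Yap1 and Wwtr1 (Taz) alleles, Cdh5CreERT2 negative (control, 3 libraries) or Cdh5CreERT2 positive (Yap1/Taz ECKO, 3 libraries). The third was between bone ECs of Lats2flx/flx mice, Cdh5CreERT2 negative (Lats2 Cont, 2 libraries) or positive (Lats2 cKO, 2 libraries). Their labels give no age, and the methods state that these ECs too came from 3-week-old mice. In both knockout comparisons the Cre-negative controls were littermates by the methods. Cdh5CreERT2 is a tamoxifen-inducible Cre recombinase that is expressed in ECs, so the floxed alleles of other cells in the same bone are not its targets, and the floxed alleles are carried by the Cre-negative controls too. The methods name males for wildtype bones and otherwise groups formed regardless of sex, and no source says whether a library holds 1 animal or several.

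Expression was deposited by the authors as FPKM, a read level corrected for gene length and library size, in 3 tables that were normalized separately. Levels are therefore set side by side across tables as values only, and tests were made within a table. Whole reads could be recovered from the steps of the low values, and the reads on genes came to 11560326 to 15441229 in the mpEC and bmEC libraries, 4889870 to 7162860 in the Yap1/Taz libraries and 4878369 to 7340844 in the Lats2 libraries. Tests were made with limma on log2(FPKM + 1), a scale that understates the change of low genes, over all genes whose mean reached 1 FPKM, and a gene was called at an adjusted p under 0.05. The methods speak of biological triplicates without saying which animals a library holds, so the p-values measure the spread between these libraries. The targeted genes were checked against the labels. Wwtr1 was higher in the libraries labelled Yap1/Taz ECKO, with a mean of 18.1 ± 2.48 FPKM (SD, n = 3) against 10.1 ± 0.240 FPKM in control (limma, log2 fold change 0.78, adjusted p = 0.0272), and Yap1 was at 1.15 ± 0.245 FPKM against 1.23 ± 0.339 FPKM (adjusted p = 0.934), so the check goes against the label, although FPKM over a whole gene need not register the loss of a floxed exon, and directions are given for the libraries labelled ECKO. Lats2 was at 19.2 ± 0.0108 FPKM (n = 2) in Lats2 cKO against 23.7 ± 0.471 FPKM in Cont (log2 fold change -0.29, adjusted p = 0.125), with 42.4% of its exon bases shared with the gene model Gm49361. The endothelial markers Cdh5, Pecam1, Emcn, Kdr, Flt1, Tek, Tie1, Erg, Eng and Cldn5 were detected in every table, and their FPKM summed to 1458 to 1974 per library in the mpEC and bmEC table, 542 to 814 in the Yap1/Taz table and 2127 to 2738 in the Lats2 table.

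3 libraries stood apart in the neutrophil genes, and each result below is given with and without them where they move it. mpEC replicate 1 was the highest of its 6 libraries for 31 of the 32 genes, while it was the highest for 22.2% of all genes tested. ECKO replicate 1 was the highest of its 6 libraries for 22 of the 32 genes, against 14.0% of all genes tested. Lats2 cKO replicate 2 was listed at 0 FPKM for 8 of the 32 genes.

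The promoters of the early pair Mpo and Elane and of the late pair Camp and Retnlg are shown because the comparison of early with late genes turns on these 4 genes. They span 250 bases before to 50 bases after the RefSeq start site in GRCm38.p6 and are written 5′ to 3′ on the strand of the gene. Mpo lies at chr11:87793534-87793833 on the plus strand, Elane at chr10:79886062-79886361 on the plus strand, Camp at chr9:109849407-109849706 on the minus strand and Retnlg at chr16:48872358-48872657 on the plus strand. Capitals mark matches, on either strand, to TTGCNNAA, a core of sites for C/EBP factors, and to GAGGAA, the core of sites for the myeloid factor PU.1.
Mpo: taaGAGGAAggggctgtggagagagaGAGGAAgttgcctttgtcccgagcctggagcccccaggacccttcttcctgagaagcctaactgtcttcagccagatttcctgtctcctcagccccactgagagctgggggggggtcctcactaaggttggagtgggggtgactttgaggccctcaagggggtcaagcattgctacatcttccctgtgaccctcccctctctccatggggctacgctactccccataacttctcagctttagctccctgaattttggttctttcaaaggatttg
Elane: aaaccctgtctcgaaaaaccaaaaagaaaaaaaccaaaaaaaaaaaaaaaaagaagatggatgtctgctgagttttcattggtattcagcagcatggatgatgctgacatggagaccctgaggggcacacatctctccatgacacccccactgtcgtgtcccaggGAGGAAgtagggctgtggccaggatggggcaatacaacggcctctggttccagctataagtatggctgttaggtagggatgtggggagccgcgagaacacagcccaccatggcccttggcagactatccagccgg
Camp: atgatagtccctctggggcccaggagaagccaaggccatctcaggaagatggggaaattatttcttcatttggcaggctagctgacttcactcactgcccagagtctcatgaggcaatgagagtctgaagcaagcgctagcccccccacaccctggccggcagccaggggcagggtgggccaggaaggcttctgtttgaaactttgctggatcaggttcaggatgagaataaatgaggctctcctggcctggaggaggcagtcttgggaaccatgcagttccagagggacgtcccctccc
Retnlg: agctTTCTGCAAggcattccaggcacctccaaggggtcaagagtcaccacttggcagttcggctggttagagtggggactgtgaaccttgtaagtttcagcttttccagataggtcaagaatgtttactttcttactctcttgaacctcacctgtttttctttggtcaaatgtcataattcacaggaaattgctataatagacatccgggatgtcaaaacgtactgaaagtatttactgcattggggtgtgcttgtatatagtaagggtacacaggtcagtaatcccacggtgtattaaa

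The Mpo window held GAGGAA at 247 and 224 bases before the start site and the Elane window held it at 85 bases before, and neither held TTGCNNAA. The Retnlg window held TTGCNNAA on the minus strand, beginning 246 bases before the start site, and no GAGGAA. The Camp window held neither, and none of the 4 windows held the TATA box letters TATAAA. No match overlapped a match to another of the motifs. RefSeq promoters were found for 27 of the 32 genes, all but Cebpe, Hp, Trem3, Ncf4 and 1100001G20Rik. With the first start site of each gene, TTGCNNAA was in 10 of the 27 windows (37.0%), against 10.8% of the 32841 promoters of the same length. GAGGAA was in 17 of the 27 (63.0%) against 28.3%, and TATAAA was in 9 of the 27 (33.3%) against 13.6%. These are counts of letters, and the binding of the factors was not measured.

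**Figure D1:**
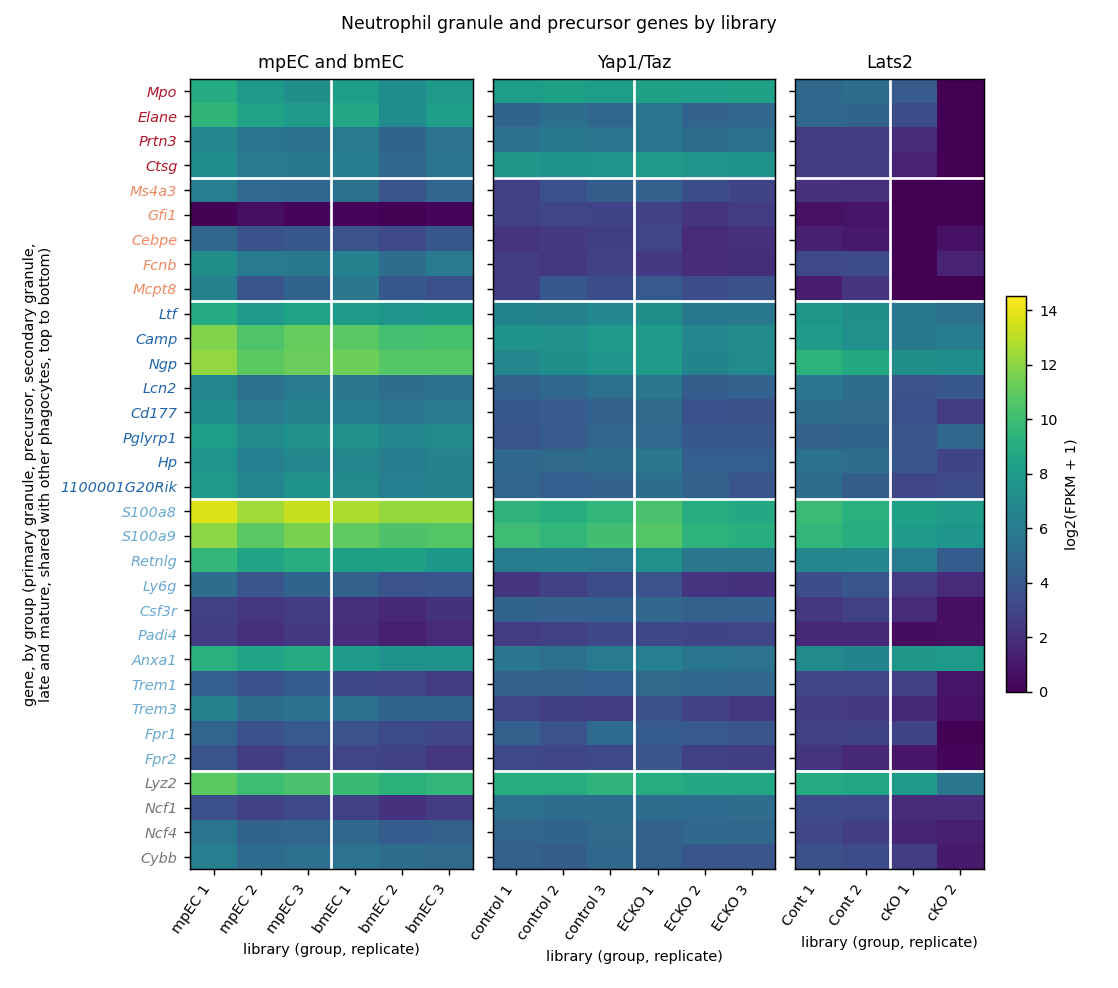
Levels of the 32 genes in the 16 libraries as log2(FPKM + 1), with genes in rows by group (primary granule, precursor, secondary granule, late and mature, shared with other phagocytes, top to bottom) and libraries in columns. Tables were normalized separately. The column of mpEC replicate 1 is the brightest of its panel, and Mpo, Elane, Prtn3 and Ctsg are dark in Lats2 cKO replicate 2, where they were listed at 0.

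A few of the 32 genes were among the most abundant transcripts of the sorted mpECs and bmECs, while Gfi1, Padi4 and Csf3r had means of 0.162, 3.09 and 3.85 FPKM there. The FPKM of all 32 summed to 2.24% to 7.03% of all FPKM in the mpEC and bmEC libraries, 0.846% to 1.79% in the Yap1/Taz libraries and 0.244% to 1.13% in the Lats2 libraries. S100a8 ranked between 2 and 9 among all genes of each mpEC and bmEC library, between 18 and 90 in the Yap1/Taz libraries and between 27 and 218 in the Lats2 libraries. S100a8 and S100a9, whose proteins bind each other, together made up 52.8% to 60.0% of the summed FPKM of the 32 genes in the mpEC and bmEC libraries, 38.5% to 53.5% in the Yap1/Taz libraries and 38.7% to 44.3% in the Lats2 libraries.

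The proportions of single genes to each other differed between the tables more than within them. S100a8 was 3.04 to 3.38 times the level of S100a9 in the mpEC and bmEC libraries, 0.654 to 0.812 times in the Yap1/Taz libraries and 1.12 to 1.33 times in the Lats2 libraries. Mpo was 0.584 to 1.02 times the level of Elane in the mpEC and bmEC libraries, 6.20 to 12.7 times in the Yap1/Taz libraries, and 1.04 to 1.92 times in the 3 Lats2 libraries in which both were above 0. The pairs of ranges do not overlap, and the part of normalization, gene models or mice in this was not tested.

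The first comparison asked how ECs of the marrow cavity differ from those of the metaphysis. Of the 31 neutrophil genes tested, 7 fell in bmECs, none rose and all 31 lay below 0 on the log2 scale, with a median of -0.66. Over all 11422 genes tested the median was -0.00068, 10.5% were called lower, 13% were called higher and 50.1% had a log2 fold change below 0. Gfi1, a transcriptional repressor of the granulocyte lineage, was below the filter of a mean of 1 FPKM with 0 to 0.432 FPKM. In bulk libraries such as these, fewer neutrophil-lineage cells and less RNA per cell cannot be told apart.

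The 7 genes that fell were Retnlg, Csf3r, Padi4, Anxa1 and Trem1 of the late and mature group and Lyz2 and Ncf1, which other phagocytes express as well. These groups were fixed by name, and Anxa1 went against the other genes of its group in Lats2 cKO, as given below. Anxa1, the annexin that binds formyl peptide receptors, was at 594, 337 and 458 FPKM in the mpEC libraries and 238, 175 and 176 FPKM in the bmEC libraries, a fall from 463 ± 129 (SD, n = 3) to 197 ± 36.0 FPKM (SD, n = 3) (log2 change of -1.21 ± 0.21 SE, adjusted p = 0.00488, limma). Trem1, an activating receptor of neutrophils and monocytes, was at 19.4, 11.8 and 17.7 FPKM in mpECs and 7.71, 7.09 and 4.91 FPKM in bmECs (log2 change of -1.18 ± 0.21 SE, adjusted p = 0.00516). For both, the highest bmEC library lay below the lowest mpEC library. Retnlg was at 786, 353 and 525 FPKM in the mpEC libraries and 299, 296 and 211 FPKM in the bmEC libraries (log2 change of -0.98 ± 0.27 SE, adjusted p = 0.0350). Lyz2, the lysozyme of myeloid cells and the most abundant of the 7, was at 1836, 1001 and 1304 FPKM in mpECs and 908, 646 and 737 FPKM in bmECs (log2 change of -0.82 ± 0.22 SE, adjusted p = 0.0312). The bmEC values of both again lay below all mpEC values.

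The other genes that fell had low levels. Ncf1, the p47phox subunit of the NADPH oxidase, was at 10.8, 6.40 and 8.21 FPKM in mpECs and 5.61, 3.20 and 4.71 FPKM in bmECs (log2 change of -0.78 ± 0.21 SE, adjusted p = 0.0333). Csf3r, the receptor for granulocyte colony-stimulating factor, was at 5.70, 3.92 and 4.91 FPKM in mpECs and 3.10, 2.05 and 3.41 FPKM in bmECs (log2 change of -0.61 ± 0.18 SE, adjusted p = 0.0430). Padi4, the peptidylarginine deiminase that citrullinates histones in neutrophils, was at 4.82, 2.94 and 4.39 FPKM in mpECs and 2.59, 1.40 and 2.41 FPKM in bmECs (log2 change of -0.69 ± 0.21 SE, adjusted p = 0.0453). These 7 were also the 7 of 31 genes tested whose groups did not overlap, against 19.2% of all genes tested that did not overlap with bmECs lower and 22.1% with bmECs higher. At the stricter threshold of the methods, an adjusted p under 0.01 with a log2 change of more than 0.5 either way, 2 of them remained called lower (Anxa1 and Trem1) where 5.17% of all genes tested were called lower and 6.51% higher.

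Among the 4 primary granule genes none passed the test, and their log2 fold changes ran from -0.80 for Ctsg to -0.32 for Mpo. Mpo was at 485, 219 and 145 FPKM in the mpEC libraries and 279, 132 and 216 FPKM in the bmEC libraries (log2 change of -0.32 ± 0.43 SE, adjusted p = 0.640). Elane was at 720.5, 323 and 249 FPKM in mpECs and 393, 129.6 and 281 FPKM in bmECs (log2 change of -0.67 ± 0.48 SE, adjusted p = 0.352). The groups overlapped in both, since bmEC replicate 1 lay above mpEC replicate 3. Prtn3 was at 24.1 to 101 FPKM over the 6 libraries and Ctsg at 27.3 to 138 FPKM. The 4 tested precursor genes, Ms4a3 (a membrane protein of granulocyte-monocyte progenitors), Cebpe (the transcription factor for secondary granule genes), Fcnb (ficolin B) and Mcpt8 (a granule protease that is also a marker of basophils), had log2 fold changes from -0.72 to -0.46 with adjusted p-values of at least 0.271.

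Of the 8 secondary granule genes none passed, and their log2 fold changes lay between -0.72 and -0.44 around a median of -0.55. These calls depended on the model. With replicate number added as a block, all of the 8 but Hp were called lower, as were S100a8, S100a9, Ctsg and Ms4a3. In that fit 22 of the 31 neutrophil genes tested were called lower, against 12.9% of all genes tested. Camp was at 3492, 1453 and 2170.2 FPKM in the mpEC libraries and 1765, 1140.1 and 1222 FPKM in the bmEC libraries (log2 change of -0.72 ± 0.31 SE, adjusted p = 0.134). Ngp, the second most abundant of the 32 genes, was at 4523, 1812 and 2310.3 FPKM in mpECs and 2559.5, 1636 and 1645 FPKM in bmECs (log2 change of -0.49 ± 0.33 SE, adjusted p = 0.333). In both genes bmEC replicate 1 lay above mpEC replicate 2. S100a8 and S100a9 did not pass either. S100a8 was at 13741, 5777 and 9648 FPKM in mpECs and 6596, 4796 and 4756 FPKM in bmECs (log2 change of -0.78 ± 0.30 SE, adjusted p = 0.1004), and S100a9 was at 4272, 1788 and 3108 FPKM in mpECs and 1992, 1418 and 1566 FPKM in bmECs (log2 change of -0.81 ± 0.29 SE, adjusted p = 0.0871). For S100a8 and S100a9 the only bmEC library above an mpEC library was bmEC replicate 1, above mpEC replicate 2.

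The size of these differences moved with mpEC replicate 1. Its levels were a median of 1.90 times the mean of the other 2 mpEC libraries over the 32 genes, where the median gene tested was at 0.993 times. Without it, Anxa1 and Trem1 were the 2 genes still called, where 8.79% of all genes tested were called lower, 28 of 31 log2 fold changes were below 0 and their median was -0.29. The count also moved when other libraries were left out, to 15 without mpEC replicate 2, to 2 without mpEC replicate 3, and to 4, 2 and 3 without bmEC replicates 1, 2 and 3. In these 5 fits the share of all genes tested that was called lower was 9%, 7.01%, 7.72%, 8.11% and 8.8%. Anxa1 and Trem1 were called in all 6 of these fits.

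Some markers of other cells moved with the same library. mpEC replicate 1 had the highest sum for the eosinophil list (812 FPKM, against 164 to 395 in the other 5 libraries), the B cell list (299.7 FPKM against 126 to 165), the basophil and mast cell list (211 FPKM against 33.8 to 161) and the osteoblast list (712 FPKM against 41.8 to 372). bmEC replicate 1 was above it for the megakaryocyte and platelet list (471 against 327 FPKM) and the erythroid list (60447 against 52954 FPKM). The endothelial sum of mpEC replicate 1, 1458 FPKM, was the lowest of all libraries in this comparison. The osteoblast list also differed by group, at 139 to 712 FPKM in mpECs and 41.8 to 53.9 FPKM in bmECs, with 4 of 6 tested genes called lower in bmECs and a median log2 fold change of -4.22. The proliferation list was at 163 to 237 FPKM in mpECs and 93.7 to 114 FPKM in bmECs, with 6 of 6 tested genes called lower and a median of -0.88. The monocyte and macrophage list had sums of 238 to 373 FPKM (mpECs) and 453 to 569.6 FPKM (bmECs). Of its 11 tested genes 3 were called higher in bmECs (Mrc1, Mertk and Cd5l) and none lower. The sum moved mainly with Mrc1, whose mean rose from 98.8 to 331 FPKM. Log2 fold changes were above 0 for 7 of the 11 and below 0 for 4. These 4 were Csf1r (-0.46), Cd68 (-0.23), Ly6c2 (-0.39) and Ccr2 (-0.45), so the list had no single direction to set against that of the neutrophil genes. The part of these other cells in the result was not tested.

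30 other genes of neutrophils were listed beside the 32, with earlier results of these data known. They gave 6 genes called lower, 2 called higher and a median log2 fold change of -0.56, where 10.5% of all genes tested were called lower and 13% higher. The genes with the highest mean FPKM were Cyba (545 ± 85.8 to 511 ± 55.1 FPKM, n = 3, adjusted p = 0.680), Chil3 (538 ± 241 to 346 ± 96.7 FPKM, adjusted p = 0.205) and Alox5ap (131 ± 42.2 to 81.7 ± 19.1 FPKM, adjusted p = 0.0862). The 2 that rose in bmECs were the transcription factors Cebpa (0.857 ± 0.210 to 2.37 ± 0.423 FPKM, adjusted p = 0.00555) and Cebpd (9.48 ± 1.43 to 26.0 ± 7.49 FPKM, adjusted p = 0.00246).

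**Figure D2:**
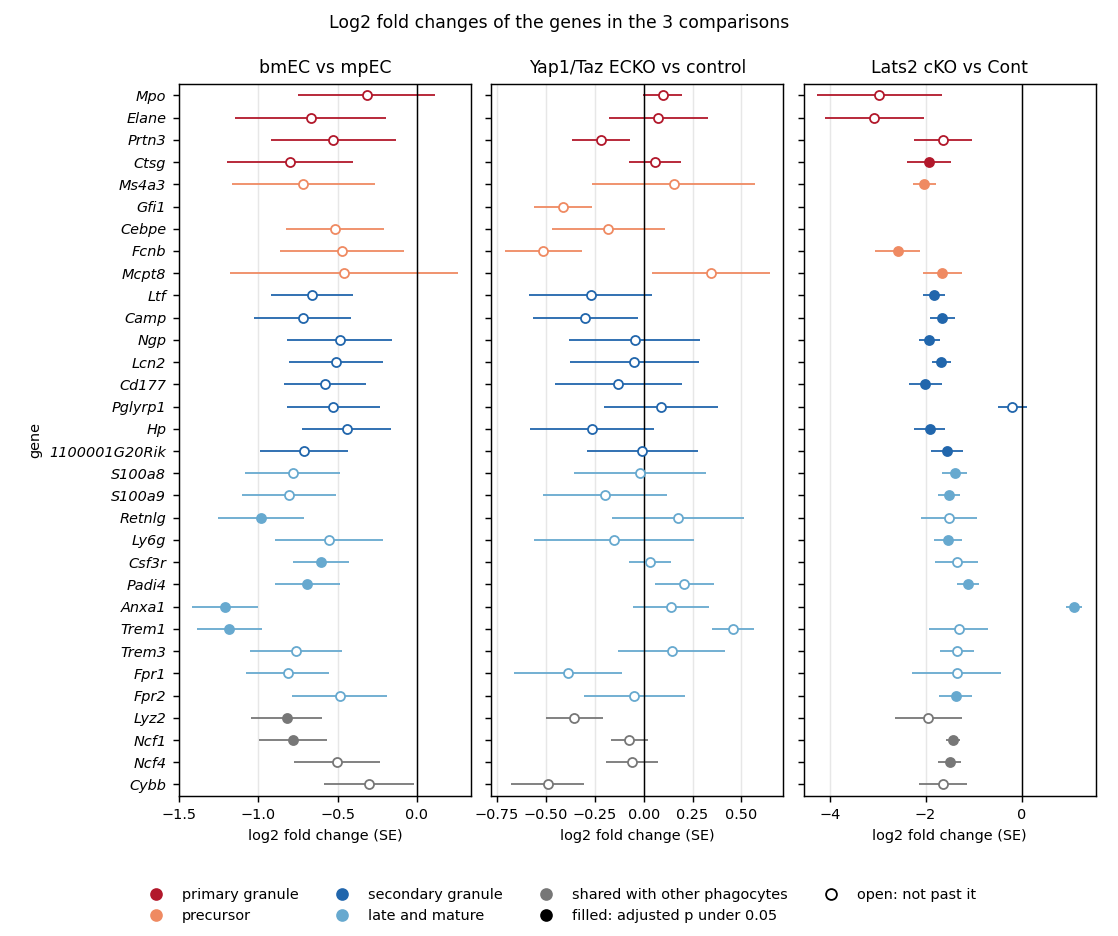
Log2 fold change of each gene with its standard error from limma (horizontal bars) in bmECs against mpECs, Yap1/Taz ECKO against control and Lats2 cKO against Cont, each panel with its own axis. Filled points passed an adjusted p of 0.05, and genes below the filter have no point. All 31 points of the first panel lie below 0, the 32 points of the second lie on both sides of 0, and in the third all but Anxa1 lie below 0.

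The second comparison asked what loss of Yap1 and Taz in ECs does to bone EC transcripts. None of the 32 neutrophil genes was called in the libraries labelled Yap1/Taz ECKO against control, with 5 at an unadjusted p under 0.05 in limma (17.9% of all genes tested were) and 1 called, Trem1, by limma-voom on the recovered reads. Of all 11320 genes tested, 0.883% were called higher and 0.424% lower. The log2 fold changes of the 32 genes ran from -0.52 to 0.46 with a median of -0.048, 12 above 0 and 20 below, while 51.1% of all genes tested were below 0. At the threshold of the methods 0.00883% of all genes tested were called lower.

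Trem1 had the smallest adjusted p of the 32. It was at 22.6, 20.8 and 19.2 FPKM in the control libraries and 31.8, 29.0 and 26.4 FPKM in the ECKO libraries (log2 change of 0.46 ± 0.11 SE, adjusted p = 0.0660), with all ECKO libraries above all control libraries. Gfi1 was at 6.23, 7.21 and 6.57 FPKM in control and 5.87, 3.79 and 4.77 FPKM in ECKO (log2 change of -0.41 ± 0.15 SE, adjusted p = 0.179), with all ECKO libraries below all control libraries. These were the only genes of the 32 whose groups did not overlap, where 12.3% of all genes tested did not overlap with ECKO higher and 11.3% with ECKO lower.

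Mpo varied less over these 6 libraries than the other granule genes. It was at 279, 306 and 271 FPKM in the control libraries and 310.2, 288 and 316 FPKM in the ECKO libraries (log2 change of 0.10 ± 0.10 SE, adjusted p = 0.663), so that the highest library was 1.17 times the lowest. Ctsg was at 206, 176 and 179 FPKM in control and 236, 184 and 169.7 FPKM in ECKO (log2 change of 0.06 ± 0.13 SE, adjusted p = 0.873), with a ratio of 1.39 between its highest and lowest library. Elane was at 24.96, 36.3 and 28.6 FPKM in control and 50.05, 22.7 and 26.8 FPKM in ECKO (log2 change of 0.08 ± 0.25 SE, adjusted p = 0.912), and its highest value was that of ECKO replicate 1. The median gene tested had a ratio of 1.46 between its highest and lowest library.

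Camp, Retnlg, S100a8 and S100a9 were higher in ECKO replicate 1 than in the other 2 ECKO libraries. Camp was at 165, 158 and 219.9 FPKM in the control libraries and 243, 106 and 119 FPKM in the ECKO libraries (log2 change of -0.30 ± 0.27 SE, adjusted p = 0.606). Retnlg was at 66.5, 69.3 and 63.5 FPKM in control and 153, 52.6 and 52.4 FPKM in ECKO (log2 change of 0.18 ± 0.34 SE, adjusted p = 0.834). S100a8 was at 677, 543 and 775 FPKM in control and 1268, 509.6 and 424 FPKM in ECKO (log2 change of -0.02 ± 0.34 SE, adjusted p = 0.989), and S100a9 was at 1034, 789 and 1102 FPKM in control and 1562, 662 and 576 FPKM in ECKO (log2 change of -0.20 ± 0.32 SE, adjusted p = 0.799). In all 4 genes ECKO replicate 1 lay above all controls and ECKO replicates 2 and 3 lay below all controls.

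ECKO replicate 1 differed by gene within both early and late genes. Relative to the mean of ECKO replicates 2 and 3, replicate 1 was at a median of 2.58 times over Camp, Ngp, Ltf, Lcn2, Retnlg, Ly6g, S100a8 and S100a9 and at 1.30 times over Mpo, Elane, Prtn3 and Ctsg. Of the early genes Mpo was at 1.03 times and Elane at 2.02 times. Of the 11 late and mature genes Ly6g was at 3.61 times and Retnlg at 2.92 times, whereas Padi4 was at 1.12, Trem1 at 1.15, Fpr1 at 1.19 and Csf3r at 1.22 times. The median gene tested was at 0.984 times. Some lists of other cells were also higher in ECKO replicate 1 than in replicates 2 and 3: erythroid (6692 FPKM against 4457 and 5045), osteoblast (13.1 against 4.49 and 5.22) and monocyte and macrophage (1471 against 1369 and 1325). The eosinophil (140 FPKM against 128 and 133) and B cell (178 against 170 and 176) lists were slightly higher. Lower in replicate 1 were the megakaryocyte and platelet (174 FPKM against 196 and 196), endothelial (698 against 799 and 814), basophil and mast cell (78.8 against 83.8 and 78.9) and proliferation (216 against 227 and 218) lists. The part of these cells in the result was not tested. Lyz2, which macrophages and monocytes express as well, was at 525, 495 and 681 FPKM in control and 496, 433 and 392 FPKM in ECKO (log2 change of -0.36 ± 0.15 SE, adjusted p = 0.239), where ECKO replicate 1 lay within the controls.

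**Figure D3:**
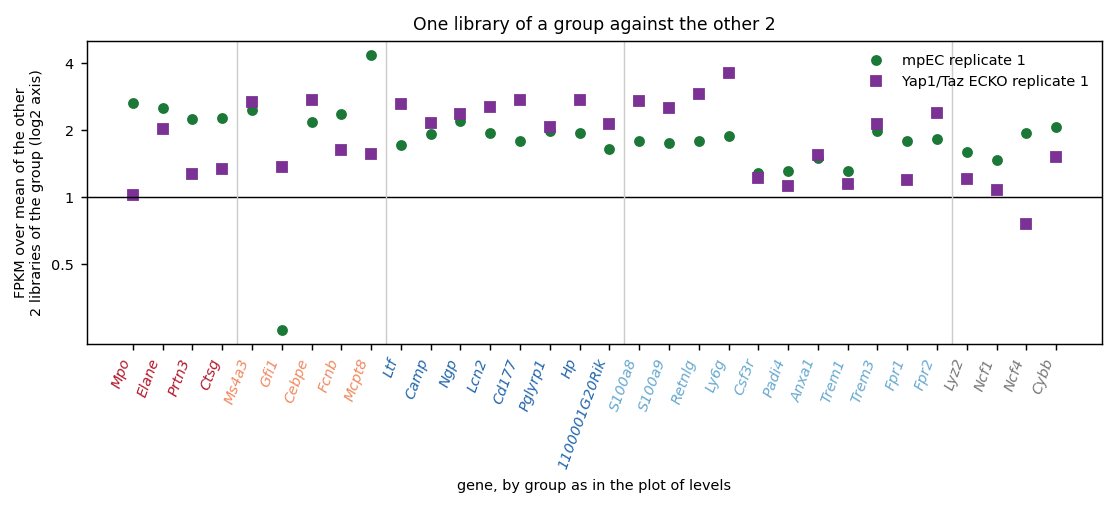
FPKM of each gene in mpEC replicate 1 (circles) and in Yap1/Taz ECKO replicate 1 (squares) over the mean of the other 2 libraries of the same group, on a log2 axis, with genes grouped as in the plot of levels. The circles lie above 1 for all genes but Gfi1. The squares lie near 1 for Mpo (1.03) and between 2.07 and 2.75 for the 8 secondary granule genes.

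Without ECKO replicate 1, the median log2 fold change of the 32 genes was -0.40 and 27 of 32 were below 0. In that fit Ltf (limma, adjusted p = 0.0307) and Hp, haptoglobin (adjusted p = 0.0191), were called lower in ECKO, where 0.69% of all genes tested were called lower. With it and without ECKO replicate 2 or 3, 12 of 32 were below 0 and none was called. In these 2 fits 1 and 2 of the 32 genes were at an unadjusted p under 0.05, against 11.2% and 12.8% of all genes tested. The direction of most of the 32 genes thus depended on which ECKO libraries were counted. The sums of the other neutrophil genes in the 30-gene list were 859 to 1041 FPKM in control and 825 to 1122 FPKM in ECKO, with none of the 29 tested called. Their most abundant members were Cyba (218 ± 34.4 to 175 ± 7.71 FPKM, adjusted p = 0.233) and Alox5ap (109 ± 8.45 to 112 ± 5.23 FPKM, adjusted p = 0.873).

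Macrophage transcripts were high in these libraries. The monocyte and macrophage list summed to 1280 to 1835 FPKM in control and 1325 to 1471 FPKM in ECKO, above the endothelial list in both groups, and none of its 11 tested genes was called. None of the 4 genes that neutrophils share with such cells was called. Ncf1 was at 39.5, 36.7 and 34.7 FPKM in control and 36.9, 33.1 and 35.2 FPKM in ECKO (log2 change of -0.07 ± 0.10 SE, adjusted p = 0.741). Its highest library was 1.19 times its lowest, and Cybb, the gp91phox subunit of the same oxidase, had a log2 fold change of -0.49 (adjusted p = 0.201).

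The third comparison asked what loss of Lats2, a kinase that restrains Yap1 and Taz, does to bone EC transcripts. Most neutrophil genes were lower in Lats2 cKO: of the 30 genes tested 18 fell and 1, Anxa1, rose. Their median log2 fold change was -1.60, against -0.0031 over all 12451 genes tested, of which 9.98% were called lower and 11.8% higher. Of the 30 tested, 27 had both cKO libraries below both Cont libraries, against 34.2% of all genes tested, and 1 had them above, against 34%. Of the log2 fold changes 29 of 30 were below 0, against 50.2% of all genes tested. At the threshold of the methods 2 of the genes were called lower, where 1.21% of all genes tested were called lower and 0.851% higher. Gfi1 and Cebpe were below the filter of a mean of 1 FPKM, and their cKO libraries were below their Cont libraries as well.

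Of the 8 secondary granule genes 7 were called lower. Ngp was at 650.2 and 440.1 FPKM in the Cont libraries and 143 and 139 FPKM in the cKO libraries (log2 change of -1.92 ± 0.21 SE, adjusted p = 0.00987, limma). Ltf was at 206 and 142 FPKM in Cont and 55.5 and 40.7 FPKM in cKO (log2 change of -1.83 ± 0.24 SE, adjusted p = 0.0122), and Camp was at 252 and 154 FPKM in Cont and 56.4 and 68.2 FPKM in cKO (log2 change of -1.65 ± 0.26 SE, adjusted p = 0.0163). The values of the 2 cKO libraries lay close to each other in these 3 genes. Lcn2, which binds bacterial siderophores, was at 51.6 and 37.4 FPKM in Cont and 12.1 and 14.2 FPKM in cKO (log2 change of -1.67 ± 0.19 SE, adjusted p = 0.0104). Cd177, a surface glycoprotein of neutrophils, was at 33.9 and 30.9 FPKM in Cont and 10.8 and 4.81 FPKM in cKO (log2 change of -2.01 ± 0.34 SE, adjusted p = 0.0189). Hp, which binds free hemoglobin, was at 43.1 and 35.3 FPKM in Cont and 13.8 and 6.58 FPKM in cKO (log2 change of -1.92 ± 0.33 SE, adjusted p = 0.0197). In Cd177 and Hp cKO replicate 2 lay well below cKO replicate 1. 1100001G20Rik, a secreted protein with a whey acidic protein domain, was at 36.6 and 18.6 FPKM in Cont and 7.33 and 9.26 FPKM in cKO (log2 change of -1.55 ± 0.33 SE, adjusted p = 0.03004).

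Pglyrp1, a peptidoglycan recognition protein of neutrophil granules, was the exception of that group. It was at 22.1 and 23.2 FPKM in the Cont libraries and 14.0 and 27.4 FPKM in the cKO libraries (log2 change of -0.20 ± 0.31 SE, adjusted p = 0.673), and its highest value was that of cKO replicate 2.

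Of the 11 late and mature genes 5 were called lower and 1 higher. S100a8 was at 947 and 593 FPKM in the Cont libraries and 310.2 and 260.3 FPKM in the cKO libraries (log2 change of -1.40 ± 0.25 SE, adjusted p = 0.0221). S100a9 was at 762 and 528 FPKM in Cont and 252 and 195 FPKM in cKO (log2 change of -1.51 ± 0.23 SE, adjusted p = 0.0159). Ly6g was at 10.2 and 13.5 FPKM in Cont and 4.73 and 2.39 FPKM in cKO (log2 change of -1.53 ± 0.29 SE, adjusted p = 0.0247). All cKO values of the 3 genes lay below both Cont values. Padi4 was at 2.24 and 2.09 FPKM in Cont and 0.384 and 0.540 FPKM in cKO (log2 change of -1.12 ± 0.23 SE, adjusted p = 0.0301), and Fpr2, a formyl peptide receptor, was at 3.57 and 2.08 FPKM in Cont and 0.818 and 0.155 FPKM in cKO (log2 change of -1.37 ± 0.35 SE, adjusted p = 0.0462). Anxa1 went the other way, at 118 and 90.5 FPKM in Cont and 204 and 239.5 FPKM in cKO (log2 change of 1.09 ± 0.18 SE, adjusted p = 0.0174), with both cKO libraries above both Cont libraries.

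The 5 late genes that did not pass differed between the 2 cKO libraries. Retnlg was at 99.8 and 102 FPKM in the Cont libraries and 66.7 and 17.8 FPKM in the cKO libraries (log2 change of -1.52 ± 0.58 SE, adjusted p = 0.120). Trem1 was at 7.58 and 7.29 FPKM in Cont and 5.66 and 0.738 FPKM in cKO (log2 change of -1.31 ± 0.62 SE, adjusted p = 0.184), and Csf3r was at 4.01 and 5.59 FPKM in Cont and 2.50 and 0.445 FPKM in cKO (log2 change of -1.35 ± 0.45 SE, adjusted p = 0.0875). In each of these 3, cKO replicate 2 lay far below replicate 1, and both lay below Cont. Trem3, a receptor of the same family as Trem1, was at 5.26 and 4.23 FPKM in Cont and 2.13 and 0.606 FPKM in cKO (log2 change of -1.35 ± 0.35 SE, adjusted p = 0.0511). Fpr1, the high-affinity formyl peptide receptor, was at 5.62 and 6.73 FPKM in Cont and 6.80 and 0 FPKM in cKO (log2 change of -1.36 ± 0.93 SE, adjusted p = 0.335), and cKO replicate 1 held its highest value.

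All 4 primary granule genes were listed at 0 in cKO replicate 2. Mpo was at 28.5 and 36.6 FPKM in the Cont libraries and 17.2 and 0 FPKM in the cKO libraries (log2 change of -2.97 ± 1.30 SE, adjusted p = 0.161). Elane was at 27.5 and 23.6 FPKM in Cont and 8.93 and 0 FPKM in cKO (log2 change of -3.07 ± 1.03 SE, adjusted p = 0.0908). Both were above 0 in cKO replicate 1 and 0 in cKO replicate 2, and neither passed. A deposited 0 can be a failed estimate, and the log2 change of Mpo ran from -6.21 to -0.87 over the alternatives. The recovered reads of Mpo were 486, 746, 222 and 0 in the 4 libraries and those of Elane 135, 138, 33.2 and 0. They were computed from the FPKM, so an FPKM of 0 gives 0 reads and they cannot show whether the 0 is real. At the depth of cKO replicate 2 a count of 3 reads would be 0.176 FPKM of Mpo and 0.612 FPKM of Elane. Prtn3 was at 4.99 and 4.85 FPKM in Cont and 2.60 and 0 FPKM in cKO (log2 change of -1.64 ± 0.60 SE, adjusted p = 0.109), and Ctsg, the 1 primary granule gene that fell, was at 5.01 and 5.20 FPKM in Cont and 1.59 and 0 FPKM in cKO (log2 change of -1.92 ± 0.46 SE, adjusted p = 0.0408).

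The precursor genes were also near or at 0 in cKO. Ms4a3 was at 3.18 and 2.99 FPKM in the Cont libraries and 0 and 0 FPKM in the cKO libraries (adjusted p = 0.0105). Mcpt8 was at 1.18 and 3.54 FPKM in Cont and 0 and 0 FPKM in cKO (adjusted p = 0.0456), and Fcnb was at 8.26 and 9.29 FPKM in Cont and 0 and 1.65 FPKM in cKO (log2 change of -2.58 ± 0.47 SE, adjusted p = 0.0218). These 3 were called lower, and since cKO was listed at 0 in both libraries for Ms4a3 and Mcpt8 no fold is given for them. Gfi1 was at 0.557 and 0.777 FPKM in Cont and 0 and 0 FPKM in cKO, and Cebpe was at 1.46 and 0.950 FPKM in Cont and 0 and 0.649 FPKM in cKO, both without a test. In all, 5 of the 32 genes were listed at 0 in cKO replicate 1 and 8 in cKO replicate 2, and 3 of them, Ms4a3, Mcpt8 and Gfi1, in both.

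Zeros were rare among other genes of the same level. Of the 4848 genes at 10 FPKM or more in each of the other 3 Lats2 libraries, 2 were listed at 0 in cKO replicate 2, namely Mpo and Gm11505, a gene model on the opposite strand that overlaps 14.95% of the Mpo exon bases. Among the 8720 genes at 3 FPKM or more in each of the other 3 libraries 6 were listed at 0, and among the 11199 at 1 FPKM or more 23 were. Camp, at 68.2 FPKM, and Ngp, at 139 FPKM, were detected in the same library with 257 and 843 recovered reads.

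Of the 4 genes shared with other phagocytes, 2 were called lower. Lyz2 was at 488 and 398 FPKM in the Cont libraries and 246 and 52.0 FPKM in the cKO libraries (log2 change of -1.95 ± 0.70 SE, adjusted p = 0.106). Ncf1 was at 8.83 and 8.26 FPKM in Cont and 2.60 and 2.52 FPKM in cKO (log2 change of -1.42 ± 0.15 SE, adjusted p = 0.00913), and Ncf4, the p40phox subunit of the oxidase, was at 7.46 and 5.16 FPKM in Cont and 1.84 and 1.29 FPKM in cKO (log2 change of -1.50 ± 0.23 SE, adjusted p = 0.0163). Cybb was at 11.3 and 9.20 FPKM in Cont and 5.15 and 1.11 FPKM in cKO (log2 change of -1.64 ± 0.50 SE, adjusted p = 0.0736). Ncf1 and Ncf4 fell, and the 2 that did not pass, Lyz2 and Cybb, were those with the widest gap between the cKO libraries.

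With 2 libraries a group these calls depended on single libraries. Without Cont replicate 1 or Cont replicate 2 none of the genes was called by limma, nor was any other gene of the table. At an unadjusted p under 0.05 there were 17 and 18 of the neutrophil genes and 2724 and 2878 of all genes. The lone library is assumed to vary like those of the other group in such fits. Without cKO replicate 2 the median log2 fold change of the neutrophil genes tested was -1.255, against -0.0080 over all genes tested. Without cKO replicate 1 it was -1.908, against -0.0052 over all genes tested. The direction was kept, with 28 of 29, 28 of 29, 28 of 30 and 29 of 31 tested log2 fold changes below 0 in the fits without Cont replicates 1 and 2 and without cKO replicates 2 and 1.

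The summed markers of other blood cells were lower in the same cKO libraries. The B cell list summed to 83.1 to 94.0 FPKM in Cont and 23.3 to 31.2 FPKM in cKO, with 5 of 6 tested genes called lower and none higher. The erythroid list was at 2454 to 3684 FPKM against 243 to 1398 FPKM (2 of 8 called lower) and the eosinophil list at 16.97 to 18.9 FPKM against 0.212 to 2.49 FPKM (1 of 1 called lower). The monocyte and macrophage list was at 184 to 209 FPKM against 36.2 to 86.8 FPKM (2 of 9 called lower, and Vsig4 and Cd5l at 0 in all libraries). Of its 9 tested genes 5 lay below 0 and 4 above, with a median log2 fold change of -0.066. The endothelial list was at 2558 to 2738 FPKM against 2127 to 2427 FPKM, with 1 of 10 genes called higher and 2 lower. The part of a change in the share of blood cells among the sorted cells was not tested.

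The 30-gene list of other neutrophil genes had 11 of 26 tested genes called lower, none higher and a median of -1.35, where 9.98% of all genes tested were called lower. Its summed FPKM overlapped between the groups, at 604 and 523 in Cont and 457 and 611 in cKO, with the highest sum in cKO replicate 2. Its most abundant genes were Cyba (175 ± 1.71 to 318 ± 121 FPKM, n = 2, adjusted p = 0.0904), Cebpd (80.4 ± 23.8 to 86.1 ± 29.4 FPKM, adjusted p = 0.854) and Chil3 (91.6 ± 18.3 to 18.9 ± 5.63 FPKM, log2 fold change -2.23, adjusted p = 0.00987). The log2 fold changes of 5 of the 26 were above 0, those of Cyba, Cebpd, Mmp9 (0.44), Serpinb1a (0.26) and Stfa1 (0.11), and none of the 5 was called.

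**Figure D4:**
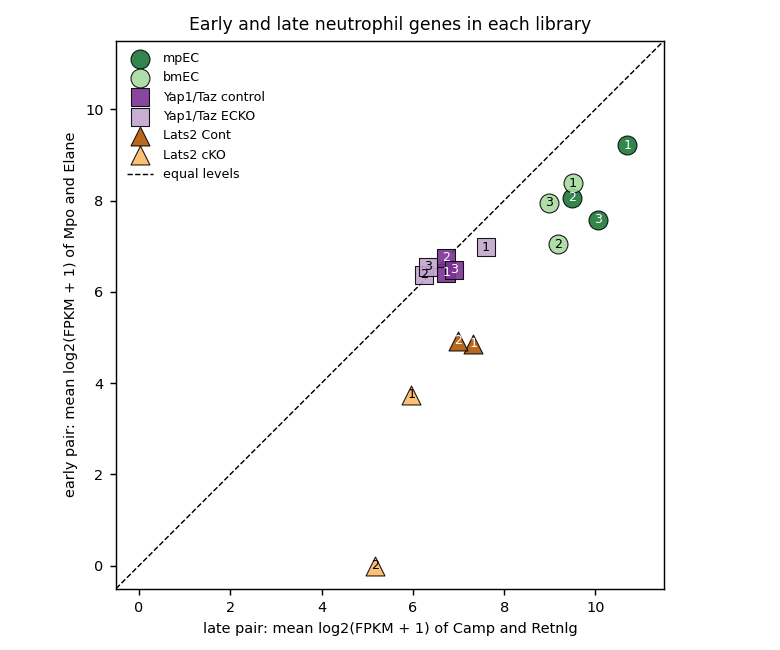
Mean log2(FPKM + 1) of the early pair Mpo and Elane against that of the late pair Camp and Retnlg in each of the 16 libraries, numbered by replicate, with the line of equal levels dashed. The Yap1/Taz libraries lie near the line, the mpEC and bmEC libraries below it, and Lats2 cKO replicate 2 lies at 0 on the early axis.

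Early and late genes were compared within each library as the mean log2(FPKM + 1) of Mpo and Elane minus that of Camp and Retnlg. This difference was -1.49, -1.43 and -2.48 in the mpEC libraries and -1.13, -2.14 and -1.04 in the bmEC libraries, in order of replicate number, so that 1 library of each group was lower than the rest and the groups overlapped. It was -0.32, 0.018 and -0.41 in the control libraries and -0.62, 0.13 and 0.23 in the ECKO libraries, again overlapping. The Lats2 libraries were at -2.46 and -2.06 in Cont and at -2.21 and -5.17 in cKO, where the low value was that of the library with Mpo and Elane at 0.

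With all libraries counted, the group means of this difference did not separate beyond the spread of the libraries. bmECs were 0.36 above mpECs, with a pooled SD of 0.60 among libraries of a group, and the difference was 0.017 without mpEC replicate 3. ECKO was 0.15 above control with an SD of 0.36, and Lats2 cKO was 1.44 below Cont with an SD of 1.49. The Yap1/Taz result moved with ECKO replicate 1, which at -0.62 lay below all control libraries. ECKO replicates 2 and 3, at 0.13 and 0.23, lay above all control libraries, of which the highest was at 0.018. Without cKO replicate 2 the Lats2 difference was 0.044, and without ECKO replicate 3 the Yap1/Taz difference was -0.011, so the sign of both rested on 1 library. No test was made of these, since the score is built on chosen genes. The longer lists of 4 early genes (Mpo, Elane, Prtn3 and Ctsg) and 8 late genes (Camp, Ngp, Ltf, Lcn2, Retnlg, Ly6g, S100a8 and S100a9) gave -1.96, -1.82 and -2.79 in mpECs, -1.83, -2.63 and -1.77 in bmECs, -0.12, 0.029 and -0.56 in control, -0.72, 0.14 and 0.26 in ECKO, and -3.82 and -3.40 in Cont against -3.25 and -5.52 in cKO.

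Within a group the early genes could differ more between libraries than the late genes did. Over the 4 early genes mpEC replicate 3 was at a median of 0.517 times the mean of the other mpEC libraries, and over the 8 late genes at 0.933 times. bmEC replicate 2 was at 0.458 times for the early and 0.771 times for the late genes. mpEC replicate 1 was high in both, at 2.40 and 1.83 times. Mpo thus ranged from 0.0670 to 0.177 times the level of Camp in the 6 libraries. In the Yap1/Taz libraries Mpo exceeded Camp, at 1.23 to 2.72 times, and the 2 lowest ratios were those of control replicate 3 and ECKO replicate 1.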

How the data were processed

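RNA-seq of sorted bone ECs was analysed in 16 libraries. By their methods, the authors aligned reads with TopHat to GRCm38/mm10, counted them with HTSeq 0.6.1 and used DESeq2 for normalization and differential expression. They deposited FPKM values in 3 separately normalized tables. How counts became FPKM and the strand setting are not given in the sources used here. Each comparison was fitted within its table with limma 3.58.1 (trend, R 4.3.3) on log2(FPKM + 1) for genes whose mean reached 1 FPKM, without a replicate block, and p-values were adjusted by Benjamini-Hochberg over all genes tested, with calls at 0.05. The step size of low FPKM and GENCODE exon lengths gave whole reads for 62.3% to 70.0% of values up to 20 reads (tolerance 0.02 reads) per library, so limma-voom on these reads, with median-ratio size factors, was an alternative only, and a version with total reads as library size was added after seeing the data. The other alternatives were a pseudocount of 0.1, no filter, a filter of 5 FPKM, quantile and median-ratio scaling, a threshold of 0.01 with an absolute log2 fold change over 0.5, a replicate block, and leaving out each library. Scripts were tested on simulated data. All 32 genes may be named. Values in every library are given for Mpo, Elane, Camp, Retnlg, the 5 genes with the highest mean, genes called and genes whose groups do not overlap. Of other lists, the 3 genes with the highest mean and those of the opposite direction are named. One gene of these lists is not reported here. The members and lists were chosen with earlier results of these data known. Promoters come from RefSeq (GRCm38.p6).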

Additional observations from a re-analysis of the deposited data

How the results depend on the processing

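Of the results recomputed under alternatives, 137 of 180 in bmECs against mpECs, 128 of 140 in Yap1/Taz and 229 of 324 in Lats2 kept their direction and side of the threshold. In bmECs the count of 7 genes called became 2 with no filter, 2 at the stricter threshold and 2 to 15 when 1 library was left out, and the log2 fold change of Mpo ran from -0.70 to 0.16, above 0 without mpEC replicate 1. In Yap1/Taz the count of 0 became 1 with limma-voom on recovered reads and 0 to 2 when 1 library was left out. The log2 fold change of S100a8 there was 0.0051 with quantile normalization, and when 1 library was left out it ran from -0.50 to 0.29, that of S100a9 from -0.64 to 0.075, that of Elane from -0.26 to 0.30, that of Ctsg from -0.082 to 0.15 and that of Retnlg from -0.33 to 0.43. In Lats2 the count of 19 became 11 with no filter, 12 with a filter of 5 FPKM, 2 at the stricter threshold and 0 to 24 when 1 library was left out, and the early minus late difference became -3.08 with a pseudocount of 0.1. With total reads as library size in limma-voom, chosen after seeing the data, the median of all genes moved to -0.21 in bmECs and -0.13 in Lats2, 15 and 27 of the neutrophil genes were called, and Elane was at -0.044 in Yap1/Taz. Of all genes, 903 were then called higher and 2649 lower in bmECs, against 1481 and 1201. The filters change which genes are tested, and for the other settings the cause was not tested.

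Replicate numbers are shared by the groups, and the methods do not say whether same-numbered libraries came from the same animals. The correlations of their deviations were 0.307, 0.0876 and 0.102 in bmECs and mpECs, -0.175, -0.123 and -0.155 in Yap1/Taz and 0.0651 in Lats2. Differently numbered libraries of bmECs and mpECs ran from -0.206 to 0.115. Of the 32 genes, replicate 1 was the highest of its group for 31 in mpECs and 29 in bmECs, and replicate 2 the lowest for 25 in each. The libraries were treated as unpaired, and a pairing in bmECs and mpECs was not settled by these values. With the replicate block 22 genes were called in bmECs against mpECs, 0 in Yap1/Taz and 23 in Lats2. With 2 or 3 libraries a group and 4878369 to 15441229 reads a library, low genes such as Gfi1 and Cebpe were not tested in every table.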
